A study of Mus musculus with 2 samples.

Results

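The 6 actin genes of the mouse are Actc1, Acta1, Acta2, Actb, Actg1 and Actg2. They were taken by name from the annotated genes with a read in either of 2 long-read RNA libraries of the heart, and all 6 were found among 14534 such genes. Transcript models of every class were kept, 43 of 56790 models in replicate 1 and 48 of 69026 in replicate 2. The tissue of both was the heart of the male B6CASTF1/J mouse at 2 months of age, the strain being a first-generation hybrid of a C57BL/6 and a CAST parent, and each library was made from 2 µg of RNA. The labels give the libraries separate biosamples, but a second text field gives both the number of the same animal, so the spread between them may be technical. No treatment, mutant or second tissue was sampled, so the values describe the adult heart and compare its 2 libraries. Reads were not split by parental allele, and in whole tissue fewer cells of a type cannot be told apart from less RNA per cell.

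Actin is the globular protein that assembles into filaments on which myosin pulls. Actc1 encodes the cardiac and Acta1 the skeletal muscle alpha-actin, and both build the thin filaments of the sarcomere. Actb and Actg1 encode the cytoplasmic beta- and gamma-actins found in nearly every cell, and Acta2 and Actg2 encode the actins of vascular and of enteric smooth muscle. The proteins are nearly identical, and in the embryonic rodent heart Acta2 and Acta1 are active beside Actc1.

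The genes are close in their coding sequence but not identical, so long reads of one member differ in many bases from those of another. The first 48 coding bases of each main annotated transcript, from GENCODE M21, are shown because they hold the start of the protein, where the members of the family differ most. Capitals mark bases that differ from the Actc1 base they align with.
Actc1: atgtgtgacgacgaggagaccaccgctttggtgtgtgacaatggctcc
Acta1: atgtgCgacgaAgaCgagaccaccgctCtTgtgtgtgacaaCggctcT
Acta2: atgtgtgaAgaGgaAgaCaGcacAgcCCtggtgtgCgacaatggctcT
Actg2: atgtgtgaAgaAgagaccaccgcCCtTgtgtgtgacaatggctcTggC
Actb: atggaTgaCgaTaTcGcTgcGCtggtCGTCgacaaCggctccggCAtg
Actg1: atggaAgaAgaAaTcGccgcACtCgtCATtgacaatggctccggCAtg
Within this stretch Acta1 and Actg2 differ from Actc1 at 7 bases each, Acta2 at 10, Actg1 at 13 and Actb at 15. Codons of Actc1 that a shorter member lacks are neither shown nor counted. Actg2, Actb and Actg1 lack such codons, so their last printed bases align with Actc1 bases past its printed line. Over the whole coding sequence the identity between 2 members ran between 82.0% for Actg1 with Acta2 and 88.6% for Actb with Actg1. The longest identical coding run of any pair had 77 bases (Acta1 with Actb). In the 3′ untranslated regions no pair shared a run longer than 11 bases.

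The main transcripts have between 1333 and 2035 bases. Actc1-201 has 7 exons and 1473 bases and Acta1-201 has 7 exons and 1446 bases. Actg1-202 and Actb-201 have 6 exons each and 1952 and 1920 bases. Acta2-201 and Actg2-201 have 9 exons each and 2035 and 1333 bases. The alpha-actins Actc1, Acta1 and Acta2 have 377 codons before the stop, Actg2 has 376, and the 2 cytoplasmic genes have 375.

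Replicate 1 held 454069 reads and replicate 2 held 661958. Levels are in CPM, reads per 1000000 reads of annotated nuclear genes (430251 in replicate 1 and 629896 in replicate 2), and they are printed with exact Poisson 95% intervals or as mean ± SD over the 2 libraries. The actin genes held 1243 reads in replicate 1, 0.289% of that total, and 1969 reads in replicate 2, 0.313%. Cardiomyocyte markers, led by Myh6 and Tnnc1, summed to 55147 CPM in replicate 1 and 46943 CPM in replicate 2, and all 8 were read in both heart libraries. Myh6, the adult heavy chain of cardiac myosin, carried that difference at 36490 CPM in replicate 1 and 27652 CPM in replicate 2, and the other 7 summed to 18657 CPM in replicate 1 and 19291 CPM in replicate 2. Erythroid markers stood apart between the libraries at 13799 CPM in replicate 1 and 3663 CPM in replicate 2. Of the 6 erythroid markers 5 had reads, and all 5 were called. Leaving them out of the total moved the mean of Actc1 to 2185 CPM.

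**Figure D1:**
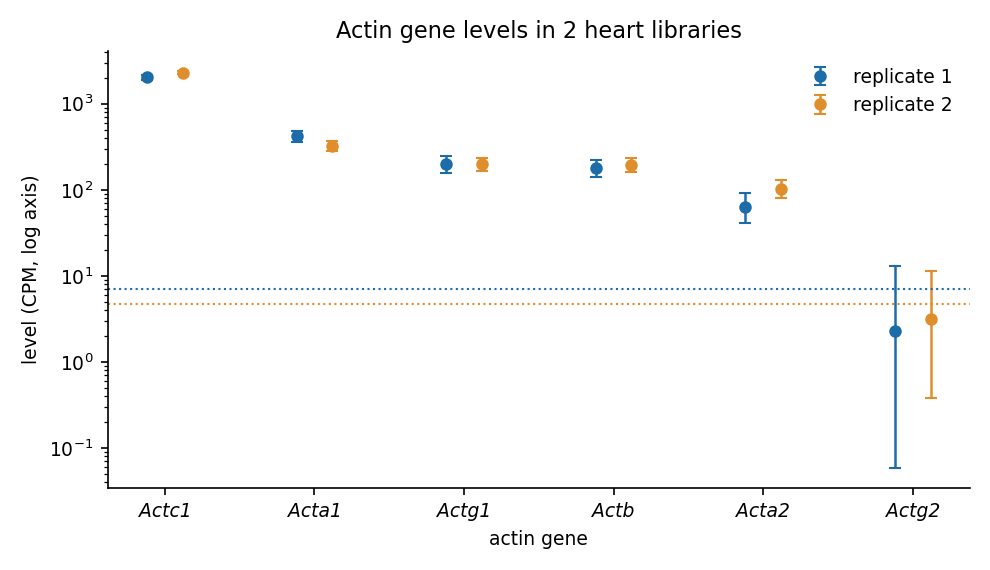
Level of each actin gene in CPM on a log axis, replicate 1 at left and replicate 2 at right, with exact Poisson 95% intervals; dotted lines mark the level that 3 reads would give in each library (6.97 and 4.76 CPM). Actc1 stands at 2029 and 2304 CPM, and the points of Actg2 lie under the dotted lines at 2.32 and 3.18 CPM.

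Actc1, the cardiac alpha-actin, was the most read actin. It had 873 reads in replicate 1, a level of 2029 CPM (1897 to 2168), and 1451 reads in replicate 2, a level of 2304 CPM (2187 to 2425). Its mean of 2166 ± 194 CPM (SD, n = 2) placed it 48th of all annotated genes, between mt-Co1, a mitochondrial gene of cytochrome oxidase, at 2172 CPM and Ndufv1, a subunit of respiratory complex I, at 2162 CPM. Actc1 lies on chr2:114047282-114053548 (mm10, minus strand; ENSMUSG00000068614.7). It held 70.2% of the actin reads in replicate 1 (Clopper-Pearson 95% interval 67.6 to 72.8) and 73.7% in replicate 2 (71.7 to 75.6), a mean of 72.0% ± 2.45.

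Acta1, the skeletal alpha-actin, was the second. It had 180 reads and 418 CPM (359 to 484) in replicate 1 and 203 reads and 322 CPM (279 to 370) in replicate 2, a mean of 370 ± 67.9 CPM. It lies on chr8:123891769-123894751 (minus strand; ENSMUSG00000031972.5), and its neighbours in rank were Car14 at 371 CPM and Dctn1 at 370.2 CPM. Acta1 held 14.5% of actin reads (12.6 to 16.6) in replicate 1 and 10.3% (9.00 to 11.7) in replicate 2, and the intervals did not overlap. Markers of skeletal muscle fibres were low beside it. The 10 genes summed to 14 reads in replicate 1 and 16 in replicate 2, and Myh1, Myh2, Myh4, Tnnt3 and Pvalb had no read in either library. The highest of the list were Myl1, at 15.6 ± 4.17 CPM, and Atp2a1, at 9.41 ± 0.162 CPM. Both stood above the level that 3 reads would give in each library. The part of skeletal muscle in the level of Acta1 was not tested.

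Actc1 had 4.85 reads for each Acta1 read in replicate 1 (4.13 to 5.73) and 7.15 in replicate 2 (6.17 to 8.32). These intervals, which cover counting error only, did not overlap. Together the 2 sarcomeric genes held 84.7% of actin reads in replicate 1 (82.6 to 86.7) and 84.0% in replicate 2 (82.3 to 85.6), so the sum differed less between the libraries than either gene did.

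The cytoplasmic actins came next and stood close to each other. Actg1 (chr11:120345690-120348542, minus strand; ENSMUSG00000062825.15) had 85 reads and 198 CPM (158 to 244) in replicate 1 and 125 reads and 198 CPM (165 to 236) in replicate 2. Actb (chr5:142903115-142906754, minus strand; ENSMUSG00000029580.14) had 77 reads and 179 CPM (141 to 224) in replicate 1 and 123 reads and 195 CPM (162 to 233) in replicate 2. The means were 198 ± 0.627 CPM for Actg1 and 187 ± 11.5 CPM for Actb. The pair held 13% of actin reads in replicate 1 and 12.6% in replicate 2. In rank Actg1 stood between Ehd1 and Rnf114, at 199 and 197.9 CPM, and Actb between Ctsf and Cul3, at 187.4 and 186.9 CPM.

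Of the smooth muscle actins only Acta2 was well covered. Acta2 (chr19:34241090-34255590, minus strand; ENSMUSG00000035783.9) had 27 reads and 62.8 CPM (41.4 to 91.3) in replicate 1 and 65 reads and 103 CPM (79.6 to 132) in replicate 2, a mean of 83.0 ± 28.6 CPM. Slc25a22 and Klhdc1 stood beside it at 83.0 and 82.9 CPM. Markers of smooth muscle, led by Smtn and Synpo2, summed to 414 CPM in replicate 1 and 392 CPM in replicate 2, with all 8 read in both libraries. Pericyte markers, led by Rgs5 and Abcc9, summed to 521 CPM in replicate 1 and 538 CPM in replicate 2. Most of that sum was Rgs5. Rgs5 and Abcc9 stood higher in replicate 1, with log2 ratios of 0.06 and 0.46. The other 4 of the 6 pericyte genes stood lower there, as Acta2 did, and had 4 to 15 reads each in that library. The median log2 ratio was -0.62 over the pericyte list and 0.16 over the tested smooth muscle markers. Over all tested genes the median absolute log2 ratio was 0.31. None of these markers was called or passed the adjusted p alone. The part of these cells in the level of Acta2 was not tested. Actg2 (chr6:83512905-83536265, minus strand; ENSMUSG00000059430.14) had 1 read in replicate 1 and 2 reads in replicate 2, under the 3 reads that a count of 0 allows, and it tied in mean level with Abcg1 and Adap1 at 2.75 CPM.

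The order of the 6 genes was Actc1, Acta1, Actg1, Actb, Acta2, Actg2 in both libraries. The intervals of 4 of the 5 neighbouring pairs did not overlap in either library. Actg1 and Actb did not differ beyond counting error, with 1.10 reads of Actg1 for each read of Actb in replicate 1 (0.801 to 1.52) and 1.02 in replicate 2 (0.786 to 1.31). Acta1 had 2.12 reads for each Actg1 read in replicate 1 and 1.62 in replicate 2, and Actb had 2.85 for each Acta2 read in replicate 1 and 1.89 in replicate 2. The levels between genes are compared per length as well. Mean levels in CPM per kilobase of the longest known transcript read were 1471 ± 132 for Actc1, 256 ± 47.0 for Acta1, 101 ± 0.321 for Actg1, 97.5 ± 6.0 for Actb, 40.8 ± 14.1 for Acta2 and 2.06 ± 0.451 for Actg2. The order was the same, and the share of Actc1 in the summed per-kilobase level was 74.6%.

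Whether a gene differed between the libraries was asked with the exact binomial test, two-sided, on its raw reads. P-values were adjusted by Benjamini-Hochberg over the 8098 genes with 10 or more reads in sum. Genes past an adjusted p of 0.05 that also differed 2-fold or more were called. None of the 5 actin genes tested was called or passed the adjusted p alone, and Actg2 had too few reads to be tested. Over all genes 26 were called, 0.321% of those tested, and 0.692% passed the adjusted p alone. An unadjusted p under 0.05 was reached by 579 genes, and the median log2 ratio of replicate 1 over replicate 2 was 0.01. The log2 ratio of Actc1 was -0.18 (unadjusted exact p = 0.0031, adjusted p = 0.216) and that of Acta1 was 0.38 (unadjusted exact p = 0.0124, adjusted p = 0.44). Acta2 had the widest difference, a log2 ratio of -0.70 (unadjusted exact p = 0.0332, adjusted p = 0.631), a level 0.608 times that of replicate 2 with an interval of 0.373 to 0.966. Actb stood at -0.12 and Actg1 at -0.00, both with an adjusted p of 1 in the exact test. The test covers counting error between 2 libraries and says nothing of mice in general.

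**Figure D2:**
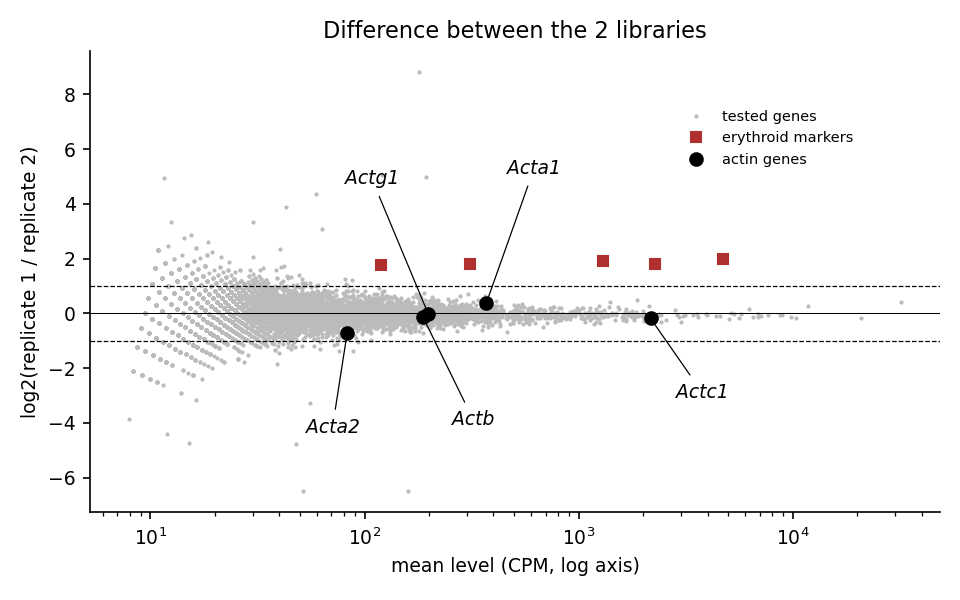
Log2 ratio of replicate 1 over replicate 2 against mean level in CPM on a log axis for the 8098 tested genes; dashed lines mark a 2-fold difference. The 5 tested actin genes (black) lie between -0.70 and 0.38, inside the dashed lines, and the 5 erythroid markers (red) lie above 1.75.

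Most actin reads matched an annotated transcript. Known models, whose splice sites follow GENCODE M21, held 84.7% of actin reads in replicate 1 (82.6 to 86.7) and 84.6% in replicate 2 (82.9 to 86.1). Incomplete splice matches (ISM), which keep only part of a transcript, held 12.9% in replicate 1 and 13.1% in replicate 2. Most of them keep a consecutive part of the introns of an annotated transcript. Some have 1 exon and no intron, and an Actc1 model with 1 read in each library has an unlisted donor. Models with known splice sites in an unlisted combination (NIC) held 0.563% and 0.762%, models with an unlisted splice site (NNC) 1.45% and 1.07%, and Genomic models, which lie over a gene but keep to none of its junctions, 0.402% and 0.559%.

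The known share differed among the genes. For Actc1 it was 82.2% in replicate 1 (79.5 to 84.7) and 82.7% in replicate 2 (80.7 to 84.6). For Acta1, which is of nearly the same length, it was 95% (90.7 to 97.7) in replicate 1 and 94.6% (90.5 to 97.3) in replicate 2, so the intervals of the 2 sarcomeric genes did not overlap in either library. Actg1 had 88.2% in replicate 1 and 91.2% in replicate 2, Actb 81.8% and 78.9%, and Acta2 92.6% and 92.3%. All 3 reads of Actg2 were of Actg2-201. Between the libraries the known share of none of the 5 genes was called by Fisher's exact test (adjusted p = 1 for each), at an adjusted p under 0.05 and a difference of at least 10 percentage points. That test called 0% of the 3328 genes with 20 or more reads in both libraries, and 115 of them had an unadjusted p under 0.05. The median known share over these genes was 84.6% in replicate 1 and 84.2% in replicate 2, and over 733 of them whose longest known transcript has 1200 to 2100 bases it was 88.7% and 89.1%.

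**Figure D3:**
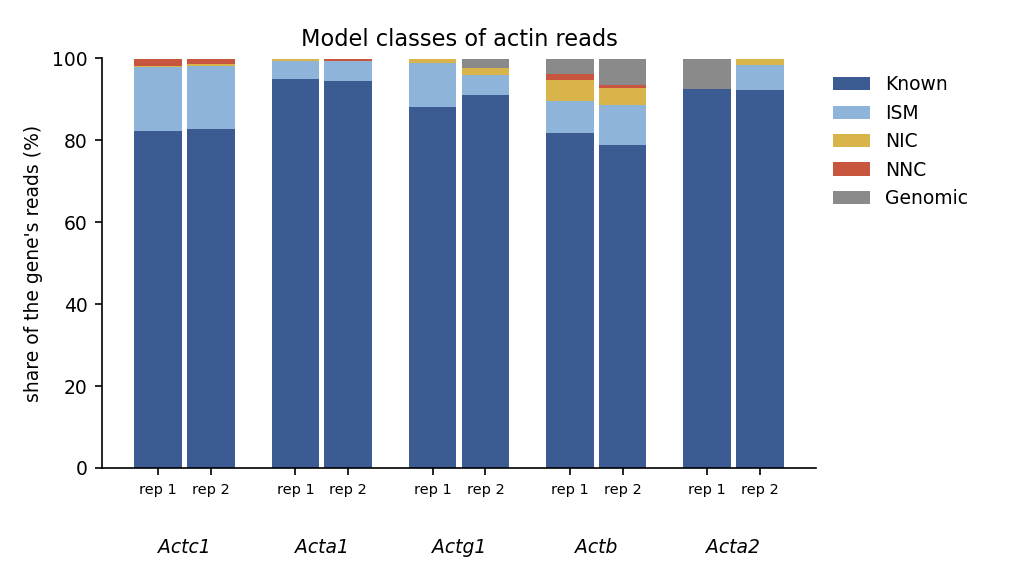
Share of each gene's reads by model class in percent, replicate 1 left of replicate 2, for the 5 genes other than Actg2, which had 3 reads in all. Among these 5 the dark blue Known share is highest in Acta1 (95% and 94.6%) and lowest in Actb (81.8% and 78.9%), and the ISM share is largest in Actc1 (15.7% and 15.5%).

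Annotated isoforms were used sparingly. GENCODE M21 lists 2 transcripts each for Actc1, Acta1 and Acta2, and only the main one of each was read as a known model. Actb lists 9 transcripts and only Actb-201 was read, with 63 reads in replicate 1 and 97 in replicate 2. Actg1 also lists 9, of which 3 were read: Actg1-202 with 72 reads in replicate 1 and 103 in replicate 2, Actg1-206 with 2 and 10, and Actg1-204 with 1 in each. In all 60 different intron chains or single-exon models were seen, 31 of them in both libraries, 12 only in replicate 1 and 17 only in replicate 2. The shared ones held 98.9% of the actin reads in each library, and 24 of the 60 rested on a single read. One Actc1 model of 7 exons and 1671 bases carried the class NNC in replicate 1 and NIC in replicate 2.

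The incomplete models of Actc1 lacked the 5′ end. Models that kept the last 6 of the 7 exons had 38 reads in replicate 1 and 53 in replicate 2, those with the last 5 had 31 and 68, and those with the last 4 had 13 and 29. The last 3 exons were kept in 8 and 10 reads, the last 2 in 8 and 9, and the last exon alone, a model of 328 bases, in 38 and 55. The 5-exon and 1-exon models were about as frequent as the 6-exon model, and those between them were rarer.

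Counted by intron, the same reads of Actc1 show this loss of the 5′ side again, so it is not a second observation. The share of Actc1 reads in models with intron 1 was 83.0% in replicate 1 (80.4 to 85.5) and 83.6% in replicate 2 (81.6 to 85.5), and with intron 6 it was 95% (93.3 to 96.3) and 95.5% (94.3 to 96.5). For Acta1 intron 1 was held by 95.6% in replicate 1 and 94.6% in replicate 2, and intron 6 by 99.4% and 98.0%. The Acta1 intervals of these 2 introns overlap in both libraries. In Actb intron 1 was held by 88.3% and 83.7% and intron 5 by 96.1% and 93.5%, with intervals that overlap in both libraries. Acta2, the longest of the 6 transcripts, held all 8 introns in 25 of 27 reads of replicate 1 and in 60 of 65 reads of replicate 2.

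**Figure D4:**
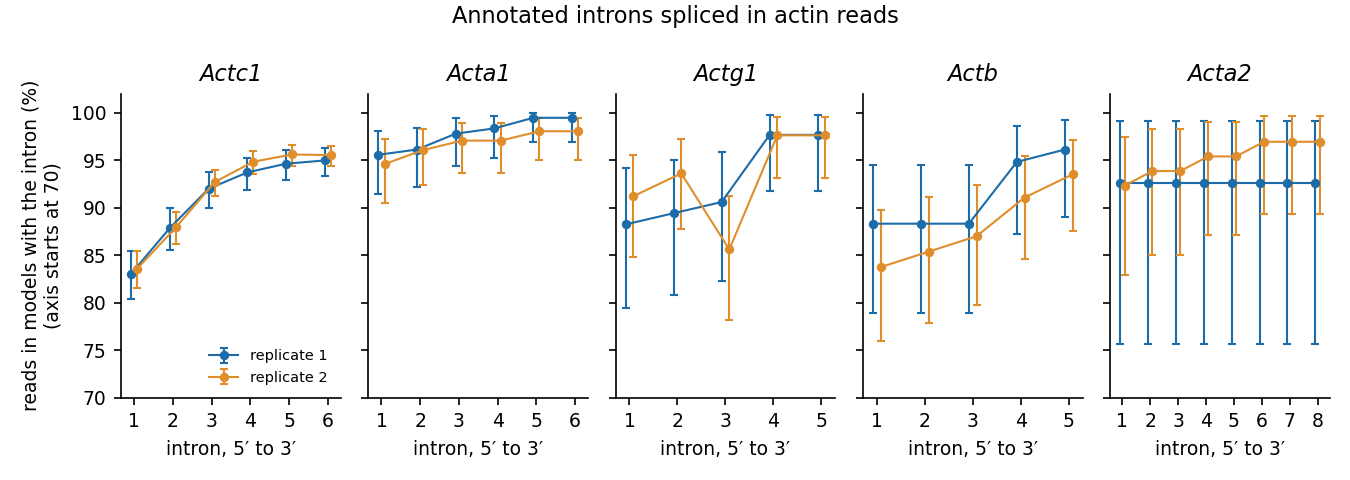
Share of each gene's reads that belong to models with a given annotated intron, numbered from the 5′ end, with exact binomial 95% intervals (replicate 1 blue, replicate 2 orange; the axis starts at 70%). Actc1 stands at 83.0% and 83.6% at intron 1 and at 95% and 95.5% at intron 6, and Actg1 dips at intron 3 in replicate 2 to 85.6%.

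Unlisted splicing of Actc1 was rare and much of it recurred in both libraries. One recurrent change was an acceptor 7 bases inside exon 2, used in 5 of 730 reads that leave exon 1 in replicate 1 (0.685%, 0.223 to 1.59) and in 8 of 1221 in replicate 2 (0.655%, 0.283 to 1.29). It removes 7 bases of the 5′ untranslated region, at chr2:114052054-114052060, and leaves the start codon 22 bases downstream untouched. The junction is shown because both libraries hold it, with the skipped bases in capitals in the annotated form.
Actc1 annotated junction: ctagcacgCCTACAGaacccaccaaagctg
Actc1 with the downstream acceptor: ctagcacgaacccaccaaagctg
The skipped bases end in the letters AG, with which most acceptor sites end.

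Another was a donor inside intron 6 of Actc1, at chr2:114047925, joined to exon 7. It was used in 5 of 834 reads in replicate 1 (0.6%) and 10 of 1396 in replicate 2 (0.716%). It appeared either as exon 6 made longer by 198 bases, in 3 and 7 reads, or as an extra exon of 51 bases, in 2 and 3 reads. First exons inside intron 2 were seen in 4 reads of replicate 1 and 3 of replicate 2. The upstream first exon of the annotated Actc1-202 was joined into models with 1 read in replicate 1 and 2 in replicate 2.

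Actb and Actg1 each had an extra exon between exons 3 and 4. Both exons are in the annotation and both hold a stop codon in frame with the actin start codon, and transcripts with such a stop are in general open to nonsense-mediated decay. They are shown 5′ to 3′ with that stop codon in capitals.
Actg1 extra exon, chr11:120347492-120347536, minus strand: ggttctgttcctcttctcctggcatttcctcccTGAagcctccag
Actb extra exon, chr5:142905088-142905150, minus strand: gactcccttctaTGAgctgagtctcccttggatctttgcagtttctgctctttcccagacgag
The Actg1 exon has 45 bases and its stop begins at base 34, after 132 codons of the 375 in the full protein. It was carried by 2 of 80 reads that join exons 3 and 4 in replicate 1 (2.5%, 0.304 to 8.74) and 11 of 120 in replicate 2 (9.17%, 4.67 to 15.8). Most of these reads were of Actg1-206, which GENCODE types as a nonsense-mediated decay transcript. A further 1 of 80 reads in replicate 1 and 2 of 120 in replicate 2 held the exon with the sequence up to exon 4 kept. The Actb exon has 63 bases and its stop begins at base 13, after 125 codons. It was carried by 4 of 72 reads in replicate 1 (5.56%, 1.53 to 13.6) and 5 of 112 in replicate 2 (4.46%, 1.47 to 10.1). The intervals of the 2 libraries overlapped for both exons.

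Actb had a second recurrent departure at its 5′ side. A model of 4 exons and 2033 bases starts in intron 1 and spans intron 2, of 87 bases. It held 5 of 73 reads in replicate 1 (6.85%, 2.26 to 15.3) and 7 of 112 in replicate 2 (6.25%, 2.55 to 12.5). A model's ends need not be those of each read, so whether these reads kept intron 2 or began after it cannot be told. An Actg1 model of 4 exons, with 4 reads in replicate 1 and 3 in replicate 2, had 1921 bases in replicate 1 and 1692 in replicate 2. Acta2 showed models with a last exon of 314 bases in place of the annotated 721 only in replicate 2, where they had 5 of 65 reads (7.69%, 2.54 to 17.0). Replicate 1 had none in 27 reads, with an exact upper bound of 12.8%.

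Copies of actin sequence elsewhere in the genome took few reads. Among the annotated transcripts 18 other genes matched an actin transcript over at least 300 bases at 85% identity or more. Of these 3 had reads, 15 in replicate 1 and 22 in replicate 2. Lrrc58, a protein-coding gene whose transcript matches Actb over 1888 bases at 89.6%, had 14 reads in replicate 1 and 19 in replicate 2. Gm15725, a processed pseudogene, had 1 and 2, and Gm12715, which matches Actg1 at 99.6% over 1128 bases, had 0 and 1. The authors' assignment of reads between such copies was used as deposited, and its error is not known.

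Genes that handle actin were read over a wide range. The 66 genes of the 5 lists below had a median of 95.8 CPM, between Acta2 and Actb, and ran up to 410 CPM for Capza2, with 15 of them above Actb and 30 below Acta2. In the comparison of the libraries 0 of the 57 tested genes on these lists was called in the exact binomial test, against 0.321% over all genes. An unadjusted p under 0.05 was reached by 3 of them. The Arp2/3 complex and actin-related proteins start branched filaments and form part of dynactin. All 13 of its genes were tested, with a median log2 ratio of -0.09, and the highest were Arpc2 (190.0 ± 32.1 CPM), Actr1b (158 ± 7.16 CPM) and Actr1a (108 ± 11.5 CPM). Of 14 genes that bind monomers or cap filaments 13 were tested, with a median of -0.04. They were led by the capping protein genes Capza2 (410 ± 34.8 CPM) and Capzb (311 ± 19.8 CPM) and by Cfl2, the muscle cofilin (335 ± 46.8 CPM).

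Of 11 genes for filament nucleation and length in the sarcomere 7 were tested, with a median log2 ratio of 0.18. Nrap, which is known for thin filament assembly, stood at 299 ± 34.2 CPM, Tmod1, which caps the pointed end, at 281 ± 24.0 CPM, and the formin Fhod3 at 207 ± 5.87 CPM. Neb, the giant ruler of skeletal thin filaments, had no read, and its relative Nebl had 37 reads in replicate 1 and 54 in replicate 2. The CCT chaperonin and prefoldin fold new actin chains, and Setd3 methylates a histidine of actin. Of 16 such genes 14 were tested, with a median of -0.13, led by Cct7 (295 ± 17.1 CPM), Cct5 (222 ± 18.2 CPM) and Cct4 (209 ± 29.7 CPM).

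Srf is the transcription factor that binds the promoters of actin genes, and its cofactors and cardiac partners formed the last list. Of its 12 genes 10 were tested, with a median log2 ratio of -0.31, and 3 of the 10 were higher in replicate 1. Hopx, which is known to restrain Srf, stood at 394 ± 80.5 CPM, the cardiac transcription factor genes Nkx2-5 at 132 ± 42.2 CPM and Gata4 at 123 ± 9.88 CPM. Srf itself had 20 reads in replicate 1 and 39 in replicate 2, a mean of 54.2 ± 10.9 CPM. Markers of other cells that hold cytoplasmic actin were present in both libraries. Fibroblast markers, led by Dcn and Col3a1, summed to 1241 CPM in replicate 1 and 991 CPM in replicate 2. Endothelial markers, led by Eng and Egfl7, summed to 748 CPM and 594 CPM, and leukocyte markers, led by Cd74 and Lyz2, to 365 CPM and 337 CPM. Their part in the levels of Actb and Actg1 was not tested.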

How the data were processed

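Long-read RNA libraries of mouse heart were analysed from 1 deposited table and 1 deposited annotation file per library. The deposited counts are whole reads per transcript model, with no normalization and no pooling, and reads had been aligned to mm10 and compared with GENCODE M21, per the text files deposited beside them. TALON is named as the source of unannotated models in the deposited annotation files. Model lengths and coordinates are deposited by the authors as bases on mm10, and a model's ends need not be those of each read. The aligner, the read correction, the versions and the assignment of strand are not given in the sources used here.

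Counts of all classes were summed per gene and scaled to the reads of annotated nuclear genes. A count of 0 allows up to 3 reads, 6.97 CPM in replicate 1 and 4.76 CPM in replicate 2. Intervals are exact at 95% (Poisson or Clopper-Pearson, scipy 1.17.1) and cover counting error only. With a single group there is no contrast, so the libraries were compared with the binomial and Fisher tests stated with the results, with 0.5 reads added for log2 ratios. Both tests were tried on simulated data that held counting error only, so further spread between libraries was not covered. Models were matched between libraries by intron chain. Copies were searched with blastn 2.17.0 in the GENCODE M21 transcripts, and coding sequences were aligned with Biopython 1.88.

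Named genes are the 6 actins, their neighbours in rank, the 3 highest and any called member of each pathway list, and the 2 highest of each marker list. Setd3, Neb, Nebl, Srf, the skeletal muscle markers with no read and the genes that hold copies of actin sequence were named outside this rule, after their values were seen. The members and lists were chosen with earlier results of these data known. Alternatives covered the scaling, the classes counted, the minimum reads, length and each library left out.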

Additional observations from a re-analysis of the deposited data

Results flagged for a closer look

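Reads on the strand opposite to Actb were found that none of the comparisons use. An unannotated locus had 112 reads over both libraries, 54 in replicate 1 (126 CPM, 94.3 to 164) and 58 in replicate 2 (92.1 CPM, 69.9 to 119), which is 70.1% of the Actb reads of replicate 1 and 47.2% of those of replicate 2. It is above the 3 reads that a count of 0 allows. The locus is 1 model of 1 exon and 421 bases at chr5:142903234-142903654 in both libraries, and all 421 bases lie in the 3′ untranslated region of Actb-201. Both of its ends coincide with exon ends of Actb-209, an annotated transcript of Actb itself on the other strand. A Genomic model of Actb on the sense strand, with 3 reads in replicate 1 and 8 in replicate 2, has its 5′ end at that base 142903234.

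Opposite to Actc1, the annotated locus A530058N18Rik had 74 reads over both libraries, 41 in replicate 1 and 33 in replicate 2, all in Genomic models of 1 exon. In replicate 1 one model with 20 reads runs over chr2:114052060-114052762, which is intron 1 of Actc1-201 with the exon base on each side, and the other, with 21 reads, runs over chr2:114047925-114052060. Its lower end is the base of the unlisted Actc1 donor in intron 6. In replicate 2 both models, with 19 and 14 reads, have the same end base of Actc1 exon 2 as one of their ends. The sources used here do not say how reads were given a strand, so reads of Actb and Actc1 and reads of the loci opposite to them cannot be told apart with certainty.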

How the results depend on the processing

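The order of the 6 genes and its 4 separated neighbour pairs were the same under all 5 alternatives. Leaving out 1 library could not change that order or those pairs, because both already held in each library. None of the 5 tested actin genes was called under any of the 7 alternatives for the gene test. No alternative counted the reads opposite to Actb, 54 in replicate 1 and 58 in replicate 2, as reads of Actb. The order of Actg1 and Actb, at 85 and 77 reads in replicate 1 and 125 and 123 in replicate 2, depends on that assignment. Their closeness depends on it too. Whether Actb would stay separated from Acta1, at 180 reads in replicate 1 and 203 in replicate 2, was not tested with those reads added. Scaling by ERCC spike-in reads raised the calls over all genes to 70, of which 22.9% were higher in replicate 1 against 69.2% in the reported scaling, and moved the median log2 ratio of all genes to -0.26. Relative to that median Actc1 stood at -0.19 and Acta2 at -0.71, though the adjusted p of Actc1 in the exact binomial test became 3.89e-11 at a difference under 2-fold. With Known transcripts only, which leave 6363 genes to test, the calls numbered 15, and 12 were higher in replicate 1. Without genomic models the log2 ratio of Actg1 reversed to 0.024, with an adjusted p of 1, and the calls for known share by Fisher's exact test numbered 19, none of them an actin gene. With no minimum difference these calls numbered 3, none an actin gene. The share of Actc1 was 74.6% per kilobase. With 1 library left out it was 70.2% or 73.7%, which are the values of the single libraries. The known share of actin reads was 85% without genomic models and 97.6% with ISM reads added. In the single libraries it was 84.6% and 84.7%. In the 6 alternatives that keep the unit, 7 of the 36 mean CPM values of the actin genes moved by at least 1 SD. Those that leave out 1 library could not move, since each of 2 libraries lies within 1 SD of their mean. Actg1, whose SD was only 0.627 CPM, moved in each of the others. The count thus says little of how stable the levels are. No paired analysis was possible because the series has 1 group. Depth limits Actg2, with 3 reads in all, and the splice changes, which rest on at most 15 reads each over both libraries.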
